A study of Mus musculus with 4 samples.

Results

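C-type lectin receptors are membrane proteins through which monocytes and other myeloid cells sense microbial sugars and lipids and products of damaged cells. This family was followed in classical monocytes of mouse bone marrow through 8 symbols, Clec2i, Clec4a2, Clec4d, Clec4e, Clec5a, Clec7a, Clec10a and Clec12a, which makes 8 members of the 27998 genes of the expression tables. Of the 8, 7 have a row in both tables. Clec7a has none and is not analysed here. The symbols were chosen by name, with their levels in old and young mice and their detection per cell already known from these same cells, so those values are given as a description and carry no test of their own.

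The cells were Ly6G- CD11b+ CD115+ Ly6C-high monocytes sorted from the marrow of wild-type (WT) C57BL/6 mice and profiled by droplet single-cell RNA sequencing, with 1 hashtag antibody per mouse. There were 5 young and 5 old mice of each sex, and the 2 sexes were processed as separate pools, so a level in males cannot be compared with a level in females apart from the pool. The methods give 14 weeks and 27 months for young and old males and 15 weeks and 26.5 months for young and old females, within the wider ranges of 2 to 6 and 24 to 30 months in the labels. No group carried a transgene or a treatment. After filtering, 526 cells of old and 701 of young males and 3009 cells of old and 3632 of young females were used, and 0 barcodes were shared between the pools.

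Depth moved with age in both pools. The median number of unique molecular identifiers (UMIs) per cell was 9699.5 to 13033 in old and 7978 to 8990 in young females, and 4489.5 to 8844 in old and 3805.5 to 4455.5 in young males, as ranges over mice. Summed UMIs per mouse ran from 2827638 to 18186954 in females and from 330586 to 1108320 in males, so the male values carry more counting error. All 6 classical monocyte markers were detected in each group, at a summed 24919 to 30960 CPM in females (UMIs scaled to the same total in every mouse) and 15614 to 36204 CPM in males. These are sums over all cells of a mouse and do not show what each cell is. The lowest value, 15614 CPM, came from an old male. Genes listed as markers of other cells were detected as well, with neutrophil genes at 90.5 to 4407 CPM and basophil genes at 23.0 to 582 CPM in males and at most 1244 and 3.47 CPM in females. The neutrophil list shares Camp and Ngp with the list for neutrophil-like monocytes, so its sum does not show that neutrophils were present.

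Most of these receptors fall into groups by the signal they send. Clec4e (Mincle) and Clec4d (MCL) bind mycobacterial glycolipids and pass an activating signal through the Fc receptor common chain, and Clec7a (Dectin-1) binds fungal beta-glucan and signals through Syk. Clec5a (MDL-1) signals through the adaptor Tyrobp. Clec4a2 (DCIR) and Clec12a (MICL) carry inhibitory motifs that recruit phosphatases, Clec10a (MGL1) binds galactose-type sugars and takes up its ligands, and Clec2i (Clr-g) is a ligand of natural killer cell receptors of the NKR-P1 family rather than a sugar sensor.

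All members but 1 lie on chromosome 6 of GRCm38, on both strands. Clec5a (ENSMUSG00000029915) stands alone at chr6:40574894-40585821. Clec4a2 (ENSMUSG00000030148) at chr6:123106428-123143999, Clec4d (ENSMUSG00000030144) at chr6:123262111-123275265 and Clec4e (ENSMUSG00000030142) at chr6:123281789-123289870 are neighbours. Clec2i (ENSMUSG00000030365) at chr6:128887588-128898167, Clec12a (ENSMUSG00000053063) at chr6:129342691-129365303 and Clec7a (ENSMUSG00000079293) at chr6:129461591-129472779 belong to the natural killer gene complex. Clec10a (ENSMUSG00000000318) lies at chr11:70156197-70170834. Clec4a2 sits among similar paralogs, among them Clec4a1, Clec4a3 and Clec4b1, and how reads shared between such copies were assigned limits how surely its counts are its own. In the GENCODE annotation Clec7a is listed as a polymorphic pseudogene, a class of which 8 of 82 genes have a row, against 21554 of 21951 protein-coding genes.

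The promoters of the 3 members whose levels in old and young females did not overlap are shown first, from RefSeq on GRCm38.p6, as 250 bases before to 50 bases after the start and in the direction of transcription. Capitals mark matches, on either strand, to GAGGAA (the core bound by PU.1), TTGCNNAA (C/EBP) and TGANTCA (AP-1), the myeloid and stress-induced factors most often named for such genes. Clec2i lies at chr6:128887337-128887636 on the plus strand, Clec4e at chr6:123289822-123290121 on the minus strand and Clec12a at chr6:129349994-129350293 on the plus strand. The Clec12a window lies inside the gene span given above, which begins at 129342691, so its start is a later one than the first base of that span.
Clec2i: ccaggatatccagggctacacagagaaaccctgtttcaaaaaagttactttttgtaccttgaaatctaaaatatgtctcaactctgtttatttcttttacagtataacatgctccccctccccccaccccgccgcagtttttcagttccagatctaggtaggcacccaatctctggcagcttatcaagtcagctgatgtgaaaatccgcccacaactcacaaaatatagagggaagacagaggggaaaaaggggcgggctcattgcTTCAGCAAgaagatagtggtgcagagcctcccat
Clec4e: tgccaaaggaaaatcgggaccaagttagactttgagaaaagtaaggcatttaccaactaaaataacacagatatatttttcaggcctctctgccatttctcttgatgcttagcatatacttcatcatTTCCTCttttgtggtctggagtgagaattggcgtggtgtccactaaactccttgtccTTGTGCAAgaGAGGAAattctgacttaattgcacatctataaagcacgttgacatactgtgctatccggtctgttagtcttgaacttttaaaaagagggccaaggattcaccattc
Clec12a: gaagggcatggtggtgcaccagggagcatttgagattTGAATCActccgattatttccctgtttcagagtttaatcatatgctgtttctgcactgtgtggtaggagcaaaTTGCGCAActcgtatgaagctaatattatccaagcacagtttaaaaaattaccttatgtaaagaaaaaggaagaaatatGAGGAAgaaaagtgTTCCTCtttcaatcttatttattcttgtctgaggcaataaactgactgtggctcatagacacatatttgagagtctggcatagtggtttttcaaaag
The Clec4e window holds 2 matches to the PU.1 core and 1 to the C/EBP motif, 66 bases before the start. In the Clec12a window there are 2 PU.1 core matches, 1 C/EBP match 140 bases before the start and 1 AP-1 match. The Clec2i window holds a single C/EBP match, 16 bases after the start, and no match to the other motifs. Over 27025 promoters of the same length, 28.3% hold the PU.1 core, 10.8% the C/EBP motif and 7.93% the AP-1 motif. These are matches of letters only. A promoter was found for 7 of the 8 members.

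In females, 3 members separated the ages. Clec2i and Clec12a were lower and Clec4e was higher in old mice, and for each of them the 5 old and the 5 young values did not overlap. Of the 7 members tested, these 3 (1 higher and 2 lower) had an adjusted p under 0.05 in the quasi-likelihood test of edgeR, where 3.42% of all 10074 genes did and where old and young values did not overlap for 5.74% of genes. Since the members were chosen with this contrast known, nothing is read from that count. The values per mouse sum over all cells, so a smaller share of cells that carry a transcript and less of it per cell cannot be told apart at this level.

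Clec2i in old females stood at 45.7, 40.2, 41.0, 46.7 and 43.4 CPM and in young females at 62.9, 66.8, 67.9, 70.5 and 60.9 CPM. The lowest young mouse was well above the highest old mouse. The log2 fold change of old against young was -0.59 ± 0.06 (SE; 95% interval -0.72 to -0.46, n = 5 per group).

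Clec4e, the glycolipid receptor, went the other way. It reached 30.9, 29.0, 30.0, 40.2 and 24.3 CPM in old and 16.7, 21.5, 24.0, 18.9 and 21.0 CPM in young females. Old female 5 and young female 3 nearly met, while old female 4 stood highest. Its log2 fold change was 0.66 ± 0.12 (SE; 0.40 to 0.92).

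Clec12a, the inhibitory receptor, differed less. Old females had 181.9, 177.5, 200.9, 169.2 and 220.6 CPM and young females 234.3, 226.6, 227.0, 229.5 and 227.9 CPM. The young mice lay close together and the old ones were spread, the highest of them just under the lowest young mouse. The log2 fold change was -0.26 ± 0.06 (SE; -0.40 to -0.13), and without old female 1 or 2 or any 1 of the 5 young females its adjusted p in edgeR no longer passed 0.05 (0.0615 to 0.0811).

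For the other members the ages overlapped in females. Clec4a2 ranged from 140.8 to 239.6 CPM in old and from 202.3 to 222.2 CPM in young females (log2 fold change -0.15 ± 0.10, SE), and its old mice spanned both the lowest and the highest values. Clec5a, at 62.6 to 72.0 CPM against 59.4 to 67.9 CPM, and Clec10a, at 35.2 to 39.9 CPM against 31.8 to 38.7 CPM, changed by 0.10 ± 0.05 and 0.06 ± 0.08. Clec4d, the partner of Clec4e, stood at 5.7 to 11.01 CPM in old and 6.0 to 10.96 CPM in young females, with a log2 fold change of 0.29 ± 0.18.

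**Figure D1:**
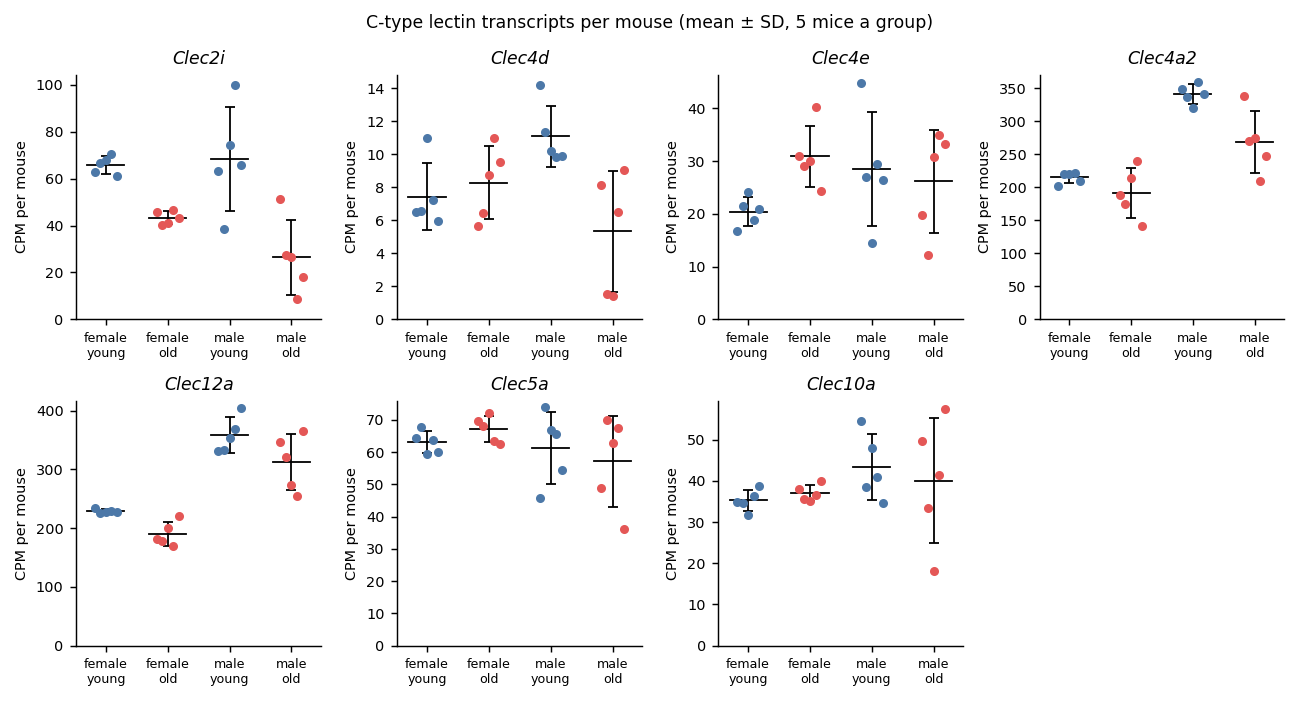
CPM of the 7 members with a row in each of the 20 mice, old and young side by side for each pool, with points for mice lines at group means and bars for the SD. In females Clec2i and Clec12a lie lower and Clec4e higher in all 5 old mice, and in males the ages overlap for every member but Clec4d.

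In males, Clec2i was again lower in old mice, with overlap. Old males had 51.4, 27.4, 26.5, 8.7 and 18.1 CPM, which rest on 57, 18, 19, 4 and 6 UMIs, and young males 63.3, 38.4, 74.3, 99.8 and 65.9 CPM, from 58, 27, 51, 61 and 40 UMIs. Old male 1 alone reached into the young range, where it stood above young male 2. The log2 fold change was -1.16 ± 0.30 (SE; -1.79 to -0.53), and -1.64 without old male 1.

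Clec4e in males showed no such order, at 19.8, 12.2, 30.7, 34.9 and 33.3 CPM in old and 44.8, 27.0, 14.6, 29.5 and 26.3 CPM in young mice, with a log2 fold change of -0.26 ± 0.29 (SE). Clec12a ranged from 254.9 to 366.0 CPM in old and from 331.9 to 405.0 CPM in young males (-0.20 ± 0.10), and Clec4a2 from 209.1 to 338.3 CPM and from 320.3 to 360.0 CPM (-0.33 ± 0.10). Below the lowest young male lay 3 of the 5 old males for Clec12a and 4 of 5 for Clec4a2. Clec5a, at 36.3 to 70.0 CPM in old and 45.9 to 74.0 CPM in young males, and Clec10a, at 18.2 to 57.5 CPM and 34.6 to 54.6 CPM, changed by -0.08 ± 0.18 and -0.18 ± 0.23.

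Clec4d had too few male UMIs to enter the test. It was found with 9, 1, 1, 3 and 3 UMIs in old and 13, 8, 7, 6 and 6 UMIs in young males, which is 8.1, 1.5, 1.4, 6.5 and 9.1 CPM against 14.2, 11.4, 10.2, 9.8 and 9.9 CPM. It was the 1 member whose male groups did not overlap. Of the 5656 genes tested 2.12% showed that pattern, but Clec4d, with 1 to 13 UMIs per mouse, was not among them. That share is therefore no background for it.

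Of the 6 members tested in males 0 passed in edgeR, as did 0 of all 5656 genes (0%), while 2 members, Clec2i and Clec4a2, and 618 genes reached 0.05 before adjustment. In males DESeq2 called 23 genes, Clec2i among them (adjusted p = 0.0329). Since the choice of members used this contrast, nothing is read from calls of members here either. With the median UMIs per cell of each mouse as a covariate the male log2 fold change of Clec2i was -0.33 and that of Clec12a 0.06, while in females the same covariate left Clec2i and Clec12a lower and Clec4e higher in old mice but turned Clec4a2 from -0.15 to 0.30. As the median UMIs per cell did not overlap between old and young mice in either pool, this covariate cannot part depth from age. The part of depth in these differences was not tested further.

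The log2 fold change with age in females less that in males, in a fit over all 20 mice, was 0.94 ± 0.34 (SE; 0.25 to 1.64) for Clec4e, 1.41 ± 0.50 for Clec4d, 0.53 ± 0.28 for Clec2i and -0.06 ± 0.12 for Clec12a. For Clec2i, lower in the old mice of both pools, the positive value means a smaller difference in females. Clec4d had too few male UMIs for the fit of males alone, and the male side of its value rests on 1 to 13 UMIs per mouse. For this difference in the age effect, in which sex and pool coincide, 0 of 7 members passed the adjusted threshold of edgeR, against 0.0225% of 8893 genes. There 2 members and 527 genes reached 0.05 before adjustment, and 0 of the 7 were called by DESeq2. The fit reuses the age contrasts known when the members were chosen, so nothing is read from these counts.

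Next, the members were followed across kinds of monocyte. Cells were clustered with the C-type lectins left out of the 3000 features used, so that no cluster was formed on them, although genes that move with them took part. Clusters were called mature Ly6C-high-like (cluster 0), G2/M (1), Apoe-high-like (2), S phase (3), DCMo-like, that is with markers of dendritic cell-like monocytes (4), NeuMo-like, with markers of neutrophil-like monocytes (5), late mitosis (6) and interferon-stimulated (7). Cluster 8, found in females alone with 118 cells led by the hormone genes Gh, Pomc and Prl, was left unnamed. Cluster 9 held 15 male cells with basophil markers and 36 female cells with T cell markers. Levels are CPM of the UMIs summed per mouse and cluster, for mice with at least 5 cells there, and compare clusters for the same gene only. They are descriptions.

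Clec2i was higher in the mature Ly6C-high-like, Apoe-high-like and DCMo-like clusters than in the G2/M, S phase and NeuMo-like ones. It averaged 110 CPM in the mature Ly6C-high-like, 141 CPM in the Apoe-high-like and 104 CPM in the DCMo-like cluster of females, against 27.6 CPM in G2/M, 19.2 CPM in S phase and 5.06 CPM in the NeuMo-like cluster. Males gave 102, 120 and 103 CPM against 21.0, 9.26 and 7.49 CPM. The order of these groups of clusters was therefore the same in both pools, while the values of single mice overlapped among the 3 high clusters (SD over mice 27.1 to 37.0 CPM in females).

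Clec4e and Clec4d had their highest mean of the named clusters in the Apoe-high-like one in both pools, but followed Clec2i only in part. Clec4e averaged 76.3 CPM in the Apoe-high-like and 47.5 CPM in the mature Ly6C-high-like cluster of females and 9.29 CPM in the NeuMo-like cluster, with 54.0, 37.7 and 8.14 CPM in males. The first of these means was raised by old female 1, which had 300.1 CPM from 5 cells. Clec4d averaged 24.3 CPM in the Apoe-high-like cluster of females and 3.06 CPM in G2/M, and 17.97 and 2.73 CPM in males. The male Apoe-high-like value (SD 13.1) rests on 9 UMIs. It is not told from the mature Ly6C-high-like cluster of males, at 14.96 CPM (SD 10.4) from 24 UMIs. In the NeuMo-like cluster Clec4d averaged 6.25 CPM in females and 8.78 CPM in males. In the DCMo-like cluster, where Clec2i was high, Clec4e averaged 33.9 CPM in females and 11.2 CPM in males. Clec4d averaged 12.2 and 3.07 CPM there.

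The other members had their own distributions. Clec10a, the galactose-type lectin, was highest of the named clusters in the DCMo-like one, at 105 ± 59.3 CPM in females and 152 ± 89.0 CPM in males (SD), and lowest, where at least 3 mice had cells, in the NeuMo-like cluster, at 16.5 and 14.6 CPM. Clec12a was highest in the NeuMo-like cluster, at 303 ± 30.5 CPM in females and 484 ± 122 CPM in males, and lowest in G2/M, at 140 and 209 CPM. Clec5a had its highest mean in S phase, at 97.6 CPM in females and 87.1 CPM in males (SD 31.6 in males). The NeuMo-like cluster came close, at 86.0 CPM in females and 86.3 CPM in males (SD 34.0 in males). Values of single mice overlapped between these clusters in both pools, and in males the means are not told apart. In the DCMo-like cluster of males Clec5a stood at 17.9 CPM. Clec4a2 was lowest of the named clusters in the NeuMo-like one, at 145 CPM in females and 160 CPM in males, against 241 and 422 CPM in the mature Ly6C-high-like cluster.

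**Figure D2:**
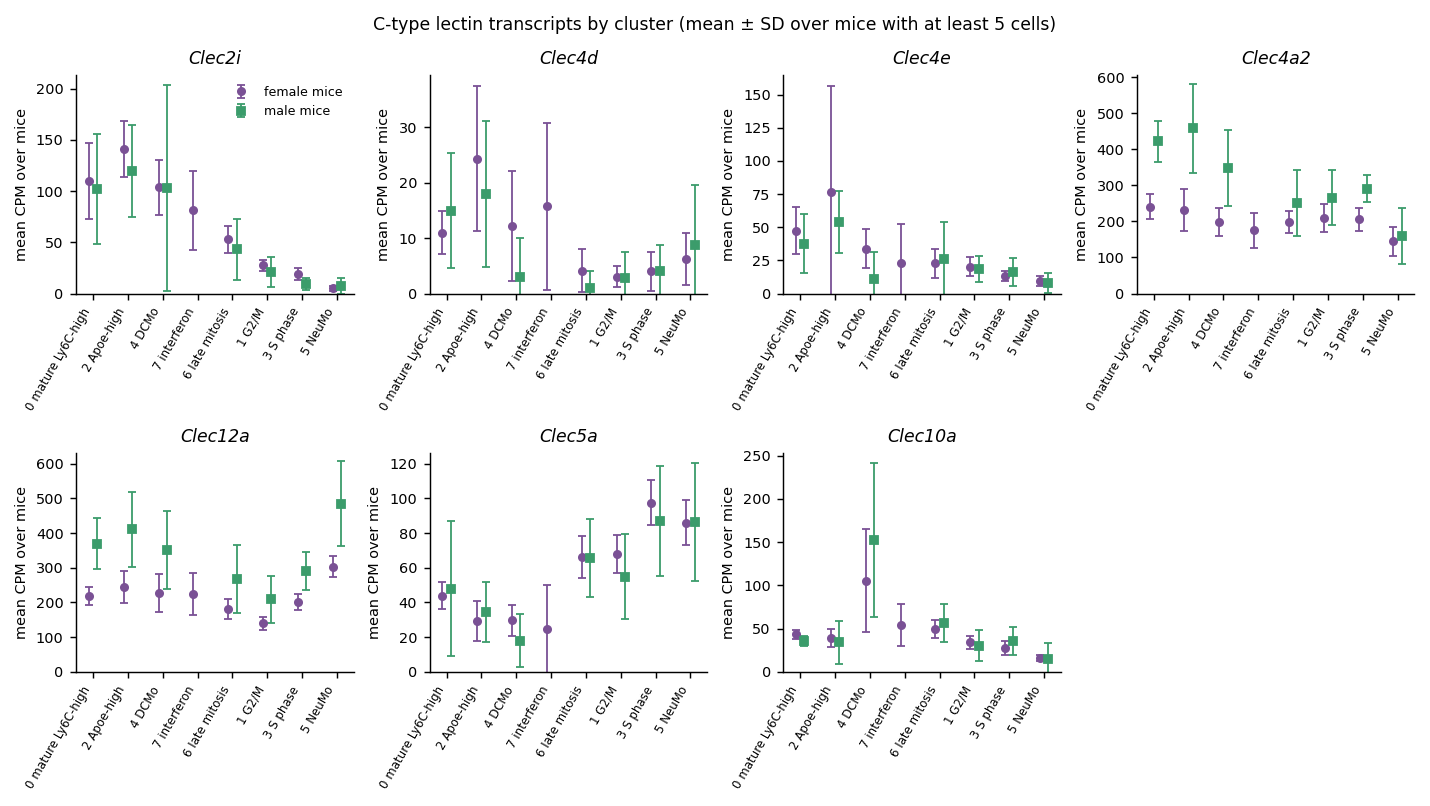
Mean CPM of each of the 7 members by cluster on a linear axis, with circles for female and squares for male mice and bars for the SD over mice with at least 5 cells in the cluster. Clec2i and Clec4e are high in the mature Ly6C-high-like and Apoe-high-like clusters, Clec10a in the DCMo-like and Clec12a in the NeuMo-like cluster, in both pools. Clec4d is highest in the Apoe-high-like cluster of females, while in males its bars overlap between clusters.

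Over the 18 points formed by a cluster in a pool, the closest pair of members were Clec2i with Clec4e (r = 0.76) and Clec4d with Clec4e (r = 0.75), and the most opposed were Clec2i with Clec5a (r = -0.78). Among other genes, the pattern of Clec2i was most like those of Fas (r = 0.96), Itgam, which encodes CD11b (r = 0.95), and Birc3 (r = 0.95). Clec4e was closest to Fas, Pilra and Zfand3 (0.85, 0.85 and 0.85), Clec4d to Hif1a, Cd14 and Neu1 (0.80, 0.80 and 0.77) and Clec10a to Tmem176a, Leprot and Fcgrt (0.88, 0.86 and 0.84). Clec4a2 was closest to Rbks, Ear2 and Fam49b (0.92, 0.88 and 0.87), Clec5a to Mrpl40, Ptgr1 and Swi5 (0.92, 0.91 and 0.91) and Clec12a to 1500011K16Rik, Rpl35a and Phb (0.89, 0.83 and 0.81). The interferon-stimulated point of males rests on 7 cells of old male 2 alone, with 0 CPM for Clec2i, Clec4d, Clec4e and Clec10a. Clusters 8 and 9 of females are among the points as well. The points share libraries and differ in depth, and no p is attached.

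The make-up of the cells moved with age as well. The mature Ly6C-high-like cluster held 23.3% ± 9.0 of the cells of old and 32.9% ± 1.4 of young females (SD, n = 5), and 17.4% ± 9.1 and 36.6% ± 5.5 of those of old and young males. The DCMo-like cluster held 15.7% ± 14.2 against 3.94% ± 0.66 in females, where old female 1 reached 41.0%, and 16.9% ± 13.5 against 7.57% ± 1.93 in males. Its leading genes in females were H2-Eb1, H2-Aa, H2-Ab1 and Cd74. Cd209a, another marker of dendritic cell-like monocytes, went the other way with age in females, short of the adjusted threshold, as given below. As the make-up differed, members were also compared within clusters, and Clec2i, Clec4e and Clec12a are given in detail below. Clec10a in the DCMo-like cluster averaged 80.7 ± 29.7 CPM in old and 130 ± 74.2 CPM in young females. Old and young males had 112 ± 85.3 and 184 ± 86.9 CPM there, and the ages overlapped in both pools. In the mature Ly6C-high-like cluster of females Clec10a was slightly higher in old mice, at 45.2 against 41.6 CPM.

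Clec2i kept its difference in the mature Ly6C-high-like cluster of females. There it stood at 78.1 ± 15.6 CPM in old (59.8 to 101.0) and 142 ± 16.2 CPM in young females (123.0 to 161.3), with no overlap. The Apoe-high-like cluster gave 126 ± 30.7 CPM (99.7 to 175.1) and 157 ± 13.2 CPM (143.0 to 172.8), with overlap. The DCMo-like cluster overlapped too, at 73.0 to 109.2 CPM in old and 78.9 to 155.7 CPM in young females. In the interferon-stimulated cluster the mean was higher in old females, at 87.7 against 75.9 CPM. In the mature cluster of males, 4 old mice ranged from 35.5 to 109.9 CPM and 5 young mice from 63.6 to 222.6 CPM.

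Clec4e separated the ages of females in the G2/M cluster and Clec12a in the G2/M and S phase clusters. Clec4e in the G2/M cluster was at 26.5 ± 3.8 CPM in old (21.8 to 30.5) and 14.3 ± 2.5 CPM in young mice (12.1 to 18.4), and in the mature cluster at 47.3 to 82.2 against 21.3 to 48.0 CPM, where the groups just overlapped. Clec12a was at 109.2 to 139.7 CPM in old against 146.1 to 162.5 CPM in young females in G2/M and at 163.7 to 195.2 against 203.1 to 232.5 CPM in S phase, without overlap in either. In the mature cluster it overlapped at 169.5 to 220.5 against 217.9 to 251.1 CPM. Clec4e overlapped in S phase, at 12.5 to 19.5 CPM in old and 6.95 to 15.8 CPM in young mice, and both genes overlapped in late mitosis, Clec4e at 9.86 to 44.7 against 10.6 to 31.1 CPM and Clec12a at 158.7 to 185.1 against 136.8 to 239.7 CPM. The part of depth in these values was not tested. The share of all genes whose ages do not overlap within a cluster was not counted. Nothing is therefore read from the separations within clusters, that of Clec2i among them.

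**Figure D3:**
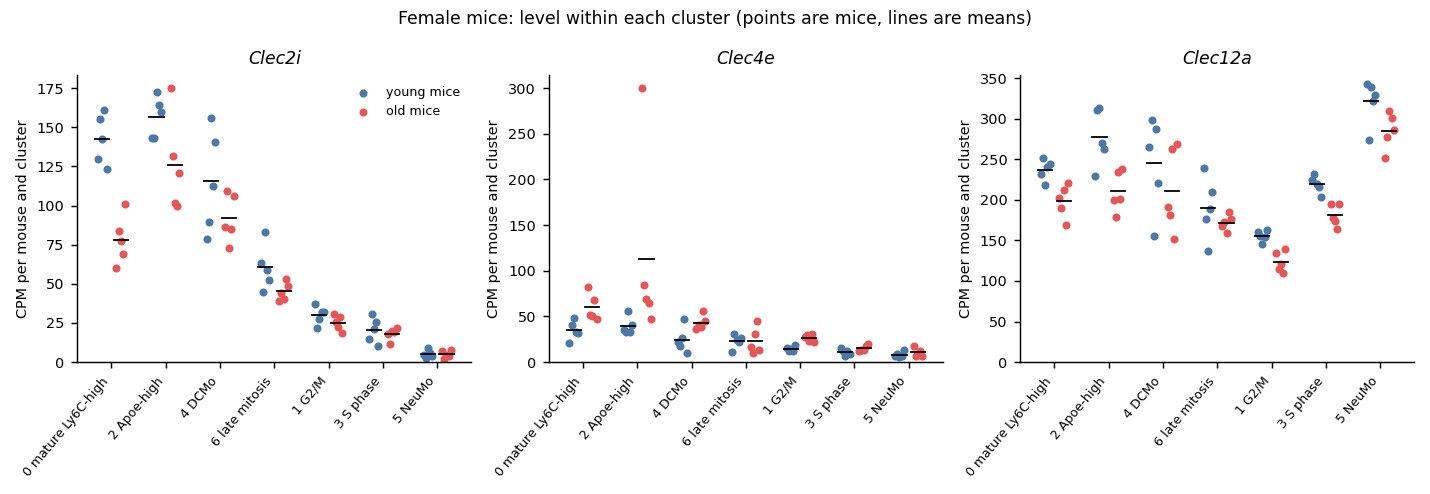
CPM of Clec2i, Clec4e and Clec12a by cluster in old and young females, with points for mice that had at least 5 cells in the cluster and lines at the mean. Old and young mice are apart for Clec2i in the mature Ly6C-high-like cluster and for Clec4e and Clec12a in the G2/M cluster, and overlap in most other clusters.

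Detection per cell gave the same 3 members a different look. At full depth 34.1% ± 2.5 of the cells of an old female and 40.5% ± 1.4 of those of a young female had a UMI of Clec2i (SD, n = 5), and 27.9% ± 3.3 against 17.8% ± 1.9 had one of Clec4e, with no overlap in either. Clec12a was found in 81.2% of cells at both ages. With every cell thinned to 2000 UMIs, which left out 3 old and 1 young female cells and 26 old and 32 young male cells, the shares for Clec12a became 31.0% ± 2.3 and 37.1% ± 1.8 and those for Clec2i 9.60% ± 1.49 and 15.9% ± 1.6, again without overlap, whereas those for Clec4e, 7.12% ± 1.96 and 4.23% ± 0.86, overlapped. Thinning reversed the order for Clec5a, from 45.8% against 41.1% to 9.83% against 10.2%, so the direction of its age difference in share changed with thinning.

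In males the share for Clec2i was 13.6% ± 5.9 in old and 24.8% ± 6.0 in young mice at full depth and 6.29% ± 3.38 and 15.1% ± 5.9 after thinning, with overlap. All 7 members had a lower mean share in old males after thinning, among them Clec4a2 (40.0% ± 7.0 and 50.4% ± 2.3) and Clec12a (40.6% ± 11.3 and 52.0% ± 5.0). How many of all genes had a lower share in old males after thinning was not counted. Nor was it counted how many had shares without overlap of the ages in females. Nothing is therefore read from these patterns about the members. A thinned cell carried a mean of 1.08 ± 0.22 members in old and 1.45 ± 0.08 in young males, and 0.989 ± 0.075 and 1.11 ± 0.04 in old and young females. Those with 2 or more members made up 30.5% ± 10.4 and 45.9% ± 5.7 of male and 25.8% ± 3.0 and 31.0% ± 2.3 of female cells.

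Free RNA sets a floor to such shares. Of the 15 male cells with basophil markers (median 1599 UMIs, against 4561.5 in the other cells) 0 had a UMI of Clec4a2, which allows a share of up to 21.8% (exact 95% interval, counting error only), against 70.5% of the other male cells. Clec12a was found in 1 and Clec2i in 2 of the 15, and the interval of 1.66 to 40.5% around 13.3% for Clec2i covers the mean shares of old and of young males, 13.6% and 24.8%, so neither is told from background by these few and shallower cells. Among the male S phase and NeuMo-like cells 6.25% and 7.50% had a UMI of Clec2i. The 36 female cells with T cell markers (median 11494.5 UMIs, against 9570) had Clec2i in 61.1% (43.5 to 76.9%) and Clec4a2 in 58.3% (40.8 to 74.5%), against 37.5% and 79.6% of the other female cells. As the Clec2i share there was above that of the monocytes, those cells are no background for it. Clec4e was found in 19.4% (8.19 to 36.0%) and Clec12a in 72.2% (54.8 to 85.8%) of them. These female cells also held all 6 classical monocyte markers, at a summed 28142 CPM, against 1120 CPM in the 15 male cells. With monocyte markers at that level they set no floor for Clec4e or Clec12a either. The part of free RNA in the female shares was not tested.

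The female pool also carried counts of 6 surface antibodies, which the choice of members did not use. Within each of the 10 mice, cells were split by the centred log ratio of an antibody, and the log2 (CPM + 10) of the upper tertile less that of the lower tertile was tested over mice with a two-sided exact sign-flip permutation test, whose smallest possible p is 0.00195. Of the 42 pairs of a member and an antibody 18 passed after adjustment over the 42. The share of all genes that would pass by each antibody was not counted, so this number is not read as a trait of the members.

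CD11b, the integrin chain by which the cells were sorted, gave the widest differences. Clec2i stood at 90.5 CPM in the upper and 25.2 CPM in the lower tertile, a difference of 1.47 (95% interval 1.17 to 1.77) that was positive in 10 of 10 mice (adjusted exact permutation p = 0.00631). Clec4e stood at 43.0 and 12.9 CPM (1.23, 0.98 to 1.47), Clec4d at 14.7 and 4.74 CPM (0.75, 0.59 to 0.91) and Clec4a2 at 244 and 162 CPM (0.58, 0.47 to 0.68), each positive in 10 of 10 mice at the same p. Clec5a was lower in the upper tertile in 10 of 10 mice, at 51.6 against 75.1 CPM (-0.47, -0.57 to -0.37). The intervals for Clec12a (-0.04 to 0.18) and Clec10a (-0.04 to 0.31) covered 0.

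The upper tertile by CD11b had a median of 7703 UMIs per cell and the lower tertile 14938.25, so the tertiles differed in depth. With cells thinned, or with the antibody counted per 1000 RNA UMIs, the calls for Clec2i, Clec4a2, Clec4d and Clec4e kept their sign and passed. Neither setting takes away the depth difference between the tertiles. Thinning changed the RNA counts but not the antibody score that set the tertiles, and scaling by RNA UMIs ranks shallower cells higher. Under that scaling Clec2i was also higher in the upper tertile by Ly6C (1.42), CD115 (0.63) and MHC-II (1.65). Within the mature Ly6C-high-like cluster alone 0 of the 42 pairs passed (lowest adjusted exact permutation p = 0.082, with 6 at an unadjusted p under 0.05), with CD11b differences of 0.15 for Clec2i, 0.31 for Clec4e, 0.46 for Clec4d and 0.0385 for Clec5a. With 10 mice a single pair cannot pass after adjustment over 42 unless others are as extreme, so this count says little about the pairs.

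**Figure D4:**
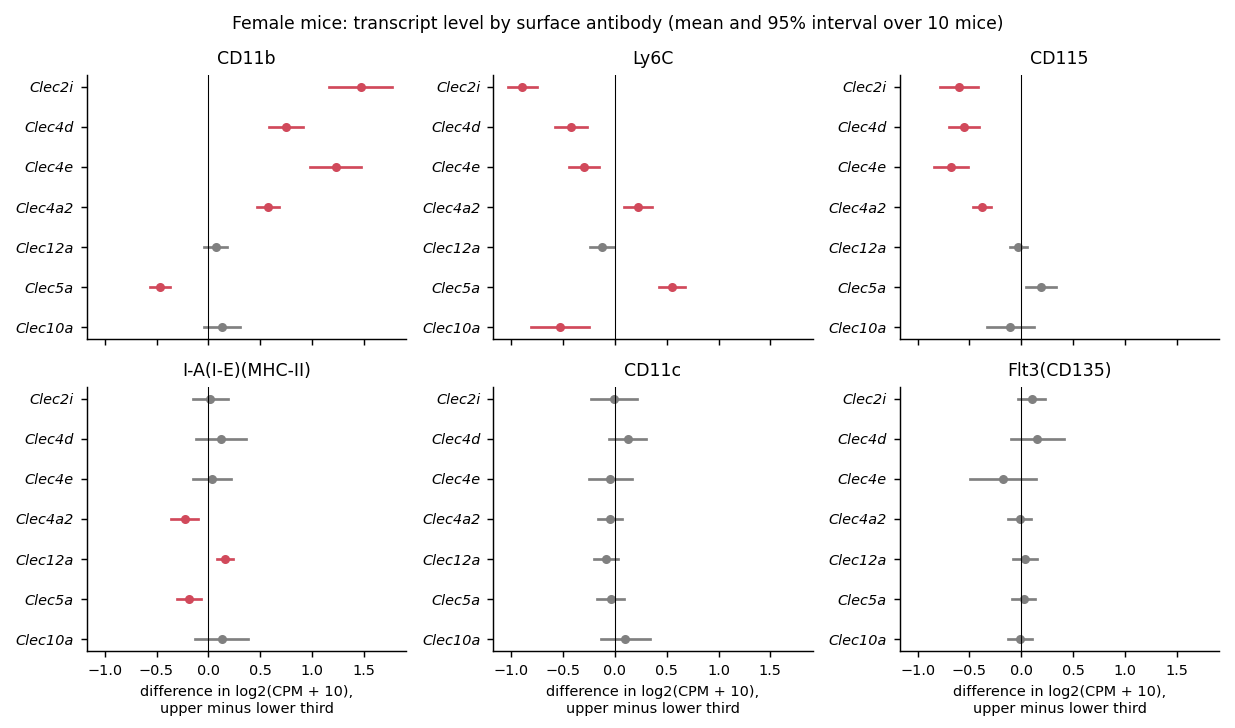
Difference in log2 (CPM + 10) between the upper and lower tertile of cells by surface antibody, for 7 members and 6 antibodies in the female pool, with points for the mean over 10 mice and bars for its 95% interval. CD11b gives the widest differences, from 1.47 for Clec2i to -0.47 for Clec5a, and the intervals for CD11c and Flt3 lie about 0.

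By surface Ly6C the order was partly the opposite. The centred log ratio sets each antibody against the others of the same cell, so a high CD11b score lowers the scores for Ly6C and CD115. The orders by these antibodies are therefore not independent of each other. Clec2i was lower in the upper tertile, at 38.8 against 80.2 CPM (-0.89, -1.03 to -0.75), as were Clec10a (-0.53), Clec4d (-0.42) and Clec4e (-0.30), and Clec5a (0.55) and Clec4a2 (0.22) were higher (adjusted exact permutation p at most 0.0228 for each). By CD115, Clec4e (-0.68), Clec2i (-0.60), Clec4d (-0.55) and Clec4a2 (-0.38) were lower in the upper tertile in 10 of 10 mice. Here the upper tertiles were the deeper ones, at 13477.25 against 7662.5 UMIs for Ly6C and 13148 against 8439 for CD115, and with the antibody counted per 1000 RNA UMIs the sign turned for Clec2i, Clec4d, Clec4e, Clec5a and Clec10a by Ly6C and for Clec2i and Clec4e by CD115. The directions of those pairs thus depend on how the antibody is scaled. Under the same scaling Clec4a2 kept its sign by Ly6C (0.56) and by CD115, and Clec4d kept its sign by CD115, at a value near 0 (-0.00627).

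By surface MHC-II the differences were small, with Clec12a higher (0.16, 0.09 to 0.24) and Clec4a2 (-0.23) and Clec5a (-0.19) lower in the upper tertile. With the antibody counted per 1000 RNA UMIs the sign turned for Clec4a2 (0.23), and within the mature Ly6C-high-like cluster for Clec5a (0.0831). For CD11c and Flt3 0 of 14 pairs passed in the exact permutation test (lowest unadjusted p = 0.117), while 12 of 14 passed per 1000 RNA UMIs and 4 of 14 with raw antibody counts. On the centred log ratio the widest interval there, for Clec4e by Flt3, ran from -0.50 to 0.14.

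Beyond the members, 51 other C-type lectin genes were listed, of which 20 could be tested in females and 11 in males. In females 1 rose and 2 fell with age, 3 of 20 where 3.42% of all genes were called, and 7 of the 20 had an unadjusted p under 0.05 in edgeR. Cd302, an endocytic lectin of phagocytes, rose, standing at 105.0 to 120.2 CPM in young and 123.5 to 144.2 CPM in old mice (log2 fold change 0.31 ± 0.05, SE, adjusted p = 0.00396 in edgeR). Clec4b1, a neighbour of Clec4a2 on chromosome 6, fell, at 28.2 to 30.6 CPM in young and 20.7 to 25.3 CPM in old mice (-0.36 ± 0.07, adjusted p = 0.00622). Cd209d fell by 1.69 ± 0.41 (adjusted p = 0.0335) on 1 to 41 UMIs per mouse, with overlap, and passed in 12 of 19 alternatives.

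The close paralogs Clec4a1 and Clec4a3 did not pass in females (-0.08 ± 0.09 and -0.08 ± 0.08, adjusted p = 0.747 and 0.711 in edgeR), nor did Klra2, of the Ly49 family (0.25 ± 0.17, adjusted p = 0.523). Cd209a, a marker of dendritic cell-like monocytes, had a log2 fold change of -1.05 ± 0.31 in females (adjusted p = 0.0849 in edgeR). The mean share of cells in the DCMo-like cluster was higher in old females, so this marker and that share moved in opposite directions. In males 0 of 11 passed in edgeR and 0 in DESeq2, with 2 at an unadjusted p under 0.05, and Cd302 stood at 0.23 ± 0.11 (adjusted p = 0.440).

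The molecules through which the receptors signal were tested as 24 listed genes, of which 23 could be tested in females and 20 in males. In edgeR 0 passed in either pool, with 5 and 1 at an unadjusted p under 0.05, and DESeq2 called 1 in females, Bcl10, and 0 in males. Fcer1g, the common chain used by Clec4d and Clec4e, had log2 fold changes of -0.03 ± 0.04 in females and -0.14 ± 0.09 in males (SE, adjusted p = 0.742 and 0.577 in edgeR). Tyrobp, the adaptor of Clec5a, stood at -0.10 ± 0.05 and -0.26 ± 0.09 (adjusted p = 0.282 and 0.308). The values in females were -0.02 ± 0.09 for the kinase Syk, -0.03 ± 0.09 for its downstream adaptor Card9 and 0.05 ± 0.04 for Ptpn6, the phosphatase that inhibitory motifs recruit. Bcl10, which acts with Card9 and was named after its values were seen, had the lowest adjusted p of the list in females (-0.19 ± 0.05, adjusted p = 0.0612 in edgeR).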

How the data were processed

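Bone marrow classical monocytes of 20 mice were measured in 2 pools, and the authors deposited UMI counts per gene, hashtag or surface antibody and cell barcode, without normalization. Per the methods and the submitters' processing notes, reads were aligned with STAR 2.5.1 to mm10 and counted with Cell Ranger 4.0.0, while the deposited file headers name other Cell Ranger versions for each pool. Whether counting used strand was not given in the sources used here.

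Cells were assigned to mice by hashtag with HTODemux (Seurat 5.3.0). Of 10433 female barcodes, 2478 doublets and 942 negatives were left out, and of the 7013 singlets the 6641 above 200 genes and with a mitochondrial share below 5% entered. All 1227 male barcodes were kept by leading hashtag, including 401 that HTODemux calls doublets and in which the leading hashtag held a median of 95.1% of hashtag counts. For each mouse UMIs were summed, and edgeR 4.0.16 (quasi-likelihood, TMM scaling, filterByExpr) compared old with young in each pool and the age effect between pools in all 20 mice, with two-sided p values adjusted by Benjamini-Hochberg over all genes tested. Standard errors were derived from the test's p and degrees of freedom. Mice of a group were replicates by the hashtag table. Clusters came from sctransform 0.4.2 and integration over 2970 features after removal of 30 lectins, at resolution 0.3 over 20 components (R 4.3.3). Levels within clusters needed 5 cells per mouse, and likeness was computed over genes with a mean of at least 20 CPM over clusters of both pools. Named by rule were all members, the 3 genes most like each, the called genes of the other lists, the 5 other lectins with the highest mean CPM (1 of them is not reported here), the cell markers and Fcer1g, Tyrobp, Syk, Card9 and Ptpn6. Members, gene lists and tests were chosen with earlier results of these data known. On data simulated at these means and depths, 97 of 99 genes changed 2-fold and 81.0% of those changed 1.5-fold were recovered in females, and 85.1% and 34.8% in males. In addition 9 unchanged genes were called in females and 7 in males. The simulation gave every gene the same spread and no difference in cell make-up between mice, so it may overstate recovery in the real data. Alternatives were DESeq2 1.42.0, upper quartile scaling, no filter, other cell assignment, thinning, a depth covariate, omission of clusters and of each mouse.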

Additional observations from a re-analysis of the deposited data

Results flagged for a closer look

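Among 28 groups of 5 mice (7 members in 4 groups), 1 value stood far from the others of its group. Clec4d in young female 3 was at 10.96 CPM, while the other young females lay between 5.99 and 7.20 CPM, a gap of 0.756 of the group's range against a limit of 0.71. Chance alone marks about 1 in 20 groups. The value rests on 31 UMIs, and young female 3 had the fewest UMIs in all of the female mice (2827638).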

How the results depend on the processing

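Over 21 alternatives per pool, Clec2i and Clec4e in females kept direction and an adjusted p under 0.05 in 21 of 21 (without 1 mouse -0.62 to -0.56 and 0.53 to 0.74; otherwise -0.75 to -0.57 and 0.49 to 1.04 on the log2 scale), and Clec12a in 14 of 21 (-0.42 to -0.18). Male Clec2i passed in 3, with DESeq2, without a filter on low counts and without old male 1, and male Clec4a2 without old male 1 (-0.43, adjusted p = 0.0484 in edgeR). The members were chosen with this contrast known and the alternatives reuse the same mice, so nothing is read from how often members passed. Cd302 passed in 18, Clec4b1 in 19 and Cd209d in 12 of 19. The count of genes called in females was 158 after thinning, 85 with the depth covariate and 194 to 522 with a mouse left out. In males it was 23 with DESeq2, 95 without the filter, 4 with the covariate, 65 without the DCMo cluster and 0 to 39 with a mouse left out (39 without old male 1, 24 without old male 4). For the interaction it was 5 without the filter, 1 with HTODemux singlets, with every barcode or without the DCMo cluster, 0 after thinning and 1 to 4 with a mouse left out. Members with a higher mean share of positive cells in old mice numbered 3 in males and 5 in females, and 0 and 2 after thinning (3 to 5 and 4 to 5 with a mouse left out). The cluster with the highest level was the same for 5 to 7 of 7 members. Pairs of member and antibody past the threshold numbered 36 per 1000 RNA UMIs, 0 in the mature cluster (an alternative chosen after seeing the data) and 18 to 20 with a mouse left out. Signs turned per 1000 RNA UMIs for CD115 with Clec2i (0.63) and Clec4e (0.17), for Ly6C with Clec2i (1.42), Clec4d (0.69), Clec4e (1.17), Clec5a (-0.52) and Clec10a (0.15) and for MHC-II with Clec4a2 (0.23); with raw antibody counts for Ly6C with Clec4d (0.0301) and Clec4e (0.0822); and within the mature cluster for CD115 with Clec2i (0.11) and Clec4a2 (0.0103), Ly6C with Clec10a (0.00754), CD11b with Clec5a (0.0385) and MHC-II with Clec5a (0.0831). The cause was not tested. No paired analysis was possible because the number of a mouse named its hashtag and mice of different ages shared no source. Depth limits the male values most, with 4 to 61 UMIs of Clec2i and 1 to 13 of Clec4d per mouse.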
